A study of Mus musculus with 14 samples.

Results

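The genes whose RNA differed between jnk1-/- and wild-type mouse lung whether or not the mouse had been ventilated were examined over all 14 arrays of the study. Such genes were sought as a main effect of genotype, fitted with ventilation as an additive covariate, and limma called 325 of 19621 probes at an adjusted p under 0.05 (1.66% of all probes). Of these, 242 probes (1.23%) also had every jnk1-/- array on the same side of every wild-type array in controls and again after ventilation, 111 higher (0.566%) and 131 lower (0.668%) in jnk1-/- lungs. These 242 are called the genes that differed the same way, and they name 197 distinct genes.

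Each genotype was represented by 7 arrays, 3 of control lungs and 4 of ventilated lungs, with 1 animal on each array by the authors' heatmap legend. Wild-type mice were C57/BL6 animals from a commercial supplier, and jnk1-/- mice, which lack Mapk8 in every cell, were on a C57/BL6 background, had a gray coat and came from another laboratory. Genotype and the source of the mice therefore cannot be told apart. Ventilated mice received 10 ml/kg breaths under anaesthesia for 8 hours, and control mice were killed soon after the anaesthetic; mice were matched for age and sex, without the ages being stated. One ventilated wild-type title reads c47/b where the others read c57/b, and it was kept with the wild type.

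Mapk8 encodes JNK1, a stress-activated kinase of the mitogen-activated protein kinase family, and Mapk9 and Mapk10 encode its relatives JNK2 and JNK3. JNK enzymes phosphorylate c-Jun, which pairs with other Jun and Fos proteins to form AP-1, a transcription factor that binds a short palindromic DNA motif. In lung, JNK and AP-1 are known for their part in the response to stretch, injury and inflammation.

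All values are log2 intensities of 1 probe after cyclic loess between arrays, so that 1 unit is a 2-fold change, and differences are jnk1-/- minus wild type. Levels of different probes are not comparable on this scale. Before normalization the array medians lay between 4.98 and 6.37, and afterwards between 5.74 and 5.87. Within groups the mean correlation of an array with its fellows, across probes, was between 0.903 and 0.945. In both control groups 1 pair of arrays lay closer than the rest over the 12159 probes that the authors' floor never touched. The SD of the difference was 0.379 between wild-type controls 2 and 3 (0.583 and 0.475 in the remaining pairs) and 0.328 between jnk1-/- controls 1 and 2 (0.691 and 0.677 in the remaining pairs). The part of this closeness in the results was not tested beyond the counts given below.

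The probe of the deleted gene did not separate the genotypes. Mapk8 read 3.09, 2.55 and 3.37 in wild-type controls and 2.07, -0.35 and 2.93 in jnk1-/- controls. It read 3.49, 4.51, 2.11 and 4.46 in ventilated wild-type lungs and 3.91, 2.86, 1.25 and 2.98 in ventilated jnk1-/- lungs. The ranges overlapped after ventilation and also in controls, and the main effect was -1.13 (standard error 0.56, adjusted p = 0.319 in limma). In the authors' values Mapk8 was held at their floor in 3 wild-type and 6 jnk1-/- lungs. The stretch of the transcript that this probe covers is unknown here, so its values check nothing about the labels. Neither relative passed the test, with main effects of -0.55 (standard error 0.28) for Mapk9 and -0.20 (standard error 0.22) for the brighter probe of Mapk10.

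The 325 called probes split into 140 higher (0.714%) and 185 lower (0.943%), and all 325 had the same sign in controls and in ventilated lungs. The additive fit favours such probes, because a difference that changes with ventilation counts there as spread. In the fit of the 4 groups, 789 probes (4.02%) passed between the genotypes in controls and 120 (0.612%) in ventilated lungs, and 48 (0.245%) passed in both with 1 sign, 22 higher and 26 lower. The test of whether the genotype difference itself changed with ventilation called 75 probes (0.382%), 3 of them among the 325. Without the demand for an adjusted p, 424 probes (2.16%) had the genotypes apart on the same side in both conditions and 80 had them apart on opposite sides. Among the genes that differed the same way, the median difference of the higher probes was 1.08, with 1.05 in controls and 1.09 after ventilation, and that of the lower probes was -1.36, with -1.39 and -1.24. The size exceeded 2-fold for 155 of the 242 probes.

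**Figure D1:**
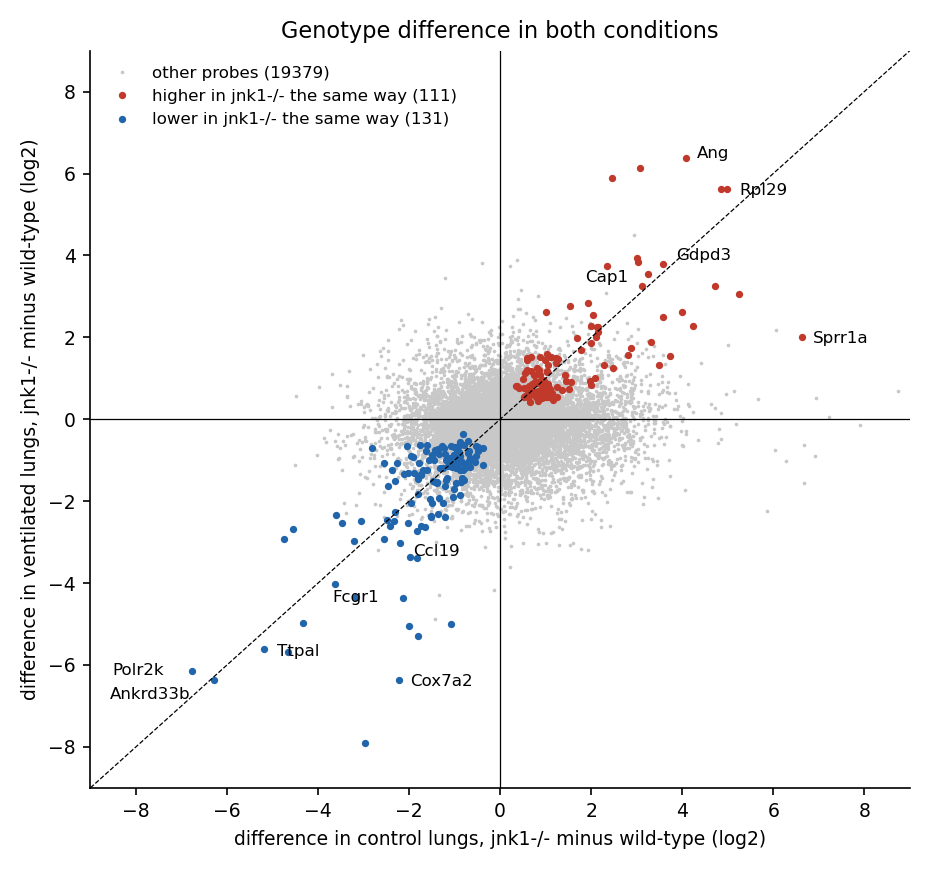
Each point is 1 probe, with the jnk1-/- minus wild-type difference (log2) in control lungs on the horizontal axis and in ventilated lungs on the vertical axis; red and blue points are the 111 and 131 probes that differed the same way, and the dashed line marks equal differences. The coloured points lie in the upper right and lower left by construction, while many grey points spread along the horizontal axis, where only the controls differed.

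The number of calls depended on single arrays. Against 325, the main effect called 185 and 180 probes without wild-type control 2 or 3, 214, 204 and 197 without wild-type ventilated 1, 3 or 4, 203 and 185 without jnk1-/- control 1 or 2, and 204 without jnk1-/- ventilated 1. With each close pair averaged into 1 array, 123 probes were called and 120 differed the same way, 110 of the latter among the 242. With both wild-type controls 2 and 3 left out, 109 were called and 109 differed the same way. In the authors' own normalized values 425 probes passed (2.17%), 144 higher and 281 lower, and 185 of the 242 probes differed the same way there too. The share of higher calls was 43.1% here, 33.9% in the authors' values, 36.3% after quantile normalization and 27.7% after median centring, so the balance between directions was set in part by the scaling.

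The conditions share no animal, so a difference found in one can be looked up in the other. Fitted alone, the 8 ventilated arrays gave 72 called probes (0.367%), of which 63 (87.5%) had the same sign in the controls and 47 (65.3%) had it with an unadjusted p under 0.05; over all probes these shares were 56.8% and 10.4%. None of the 72 was significant in the opposite direction. The 6 control arrays fitted alone gave 124 called probes (0.632%), of which 76 (61.3%) had the same sign after ventilation and 27 (21.8%) had it at an unadjusted p under 0.05, against 56.8% and 7.50% of all probes, and 4 were significant in the opposite direction. The median size of the 72 was 2.43 where they were found and 1.53, in the same direction, in the controls, whereas that of the 124 fell from 3.00 to 0.27. With the conditions normalized separately, by quantile normalization in place of cyclic loess, the shares at p under 0.05 were 64.7% and 21.2%.

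The largest deficits in jnk1-/- lungs were in genes with steady wild-type signals. Polr2k, a small subunit shared by the nuclear RNA polymerases, read 7.52 to 7.64 in wild-type controls against -0.65, 2.13 and 0.97 in jnk1-/- controls, and 6.84, 7.36, 7.04 and 7.38 against 0.38, -0.65, 2.29 and 2.01 after ventilation. All 7 jnk1-/- arrays lay below every wild-type array by a wide gap, and all 7 stood at the authors' floor. The main effect was -6.42 (standard error 0.48, adjusted p = 1.2e-05), and -3.88 in the authors' values, where the floor bounds it. Among the 9 RNA polymerase II subunits measured, Polr2k was the only one called, and the list's median difference was 0.10, against 0.06 over all probes.

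Ankrd33b, an ankyrin repeat gene, read 9.12, 9.03 and 8.79 in wild-type controls and 3.33, 2.35 and 2.43 in jnk1-/- controls. After ventilation it read 9.45, 9.48, 9.32 and 9.43 in wild-type and 2.55, 3.09, 2.62 and 3.91 in jnk1-/- lungs. Neither group overlapped, and the main effect was -6.33 (standard error 0.22, adjusted p = 7.8e-09), -6.28 in controls and -6.37 after ventilation. Ttpal, a relative of the vitamin E transfer protein, was lower on both of its probes. The brighter one read 9.04, 9.50 and 9.54 against 4.03, 3.59 and 4.92 in controls, and 8.86 to 9.45 against 2.94, 3.75, 2.84 and 4.26 after ventilation. Its main effect was -5.43 (standard error 0.26) and that of the second probe -2.94 (standard error 0.26), both past the threshold.

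Some other members fell by similar amounts, likewise to dim values on some jnk1-/- arrays. Amacr, a racemase of branched-chain fatty acid breakdown, differed by -5.24 (standard error 0.73), Norad, a long noncoding RNA that binds Pumilio proteins, by -4.70 (standard error 0.63) and Lima1, an actin-binding protein, by -5.78 (standard error 0.93). In the authors' values, with their floor, the same differences were -3.37, -1.89 and -3.88. Amacr and Lima1 lost their calls when no floor was set. Lima1 was uneven among the controls, with 7.50, 3.05 and 5.14 in jnk1-/- lungs beside 8.93, 7.89 and 7.75 in wild-type lungs, while ventilated jnk1-/- lungs read -0.65, -0.57, 2.25 and -0.65 against 7.26 to 8.42. Ttl, the tubulin tyrosine ligase, differed by -3.84 (standard error 0.30) on 1 of its 3 probes, and the others gave -0.49 and -0.73 and were not called. Over the 242 probes, 175 had no array at the authors' floor, 14 stood there on more than 7 of the 14 arrays and 3 on all 14.

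Some large deficits on chromosome 9 split the jnk1-/- controls in the same manner. Cox7a2, a subunit of mitochondrial cytochrome c oxidase, read 6.58, 10.95 and 11.58 in jnk1-/- controls and 5.68, 5.30, 5.37 and 5.36 in ventilated jnk1-/- lungs, with 11.98, 11.84 and 11.94 in wild-type controls and 11.58 to 11.94 in ventilated wild-type lungs. Ift46, a component of the transport machinery of cilia, read 3.71, 7.62 and 7.39 in jnk1-/- controls and 2.05 to 2.92 in ventilated jnk1-/- lungs, and wild-type arrays read 7.62 to 8.50. Hoatz, a gene of cilia and flagella, read 3.23, 6.11 and 5.72 and then -0.65 to 3.85, and wild-type arrays read 6.54 to 7.31. In each of these genes jnk1-/- control 1 lay near the 4 ventilated jnk1-/- lungs, and the other two controls lay within 2 units of the wild type. The main effects were -4.59 for Cox7a2, -3.80 for Ift46 and -3.74 for Hoatz (standard errors 0.82, 0.69 and 0.75). The Hoatz call was lost without any 1 of wild-type ventilated 1, 2, 3 or 4, jnk1-/- control 1 or jnk1-/- ventilated 4. Of the 242 probes, 20 spanned more than 2 units among the jnk1-/- controls and 11 among the wild-type controls, and 7 and 1 did so with all arrays above the authors' floor.

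The gains had their own steady cases. Ang, the ribonuclease angiogenin, read 3.04, 4.30 and 3.78 in wild-type controls against 7.90, 8.12 and 7.34 in jnk1-/- controls, and 1.58, 3.51, 3.13 and 2.75 against 10.18, 8.82, 8.45 and 9.06 after ventilation. The groups were far apart in each condition, and the main effect was 5.40 (standard error 0.46, adjusted p = 4.3e-05), or 5.04 in the authors' values, where Ang was at the floor on 4 of 7 wild-type arrays. Rpl29, a protein of the large ribosomal subunit, read 7.25, 7.46 and 6.64 against 11.95, 11.87 and 12.47 in controls, and 7.01, 7.17, 7.34 and 6.93 against 12.77, 12.08, 13.04 and 13.03 after ventilation. Its main effect was 5.34 (standard error 0.21, adjusted p = 1.8e-08). Of 40 cytosolic ribosomal protein genes measured, Rpl29 was the only one called, and the median of the list was 0.19. Rpl29 has near-identical processed copies in the genome, and which of them the probe reads is not known here.

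Gdpd3, a lysophospholipase D, read 6.77, 6.64 and 6.09 against 10.01, 10.68 and 9.55 in controls, and 6.66, 6.96, 6.76 and 6.58 against 10.51, 10.40, 10.51 and 10.71 after ventilation. Cap1, which binds actin and adenylyl cyclase, read 5.92, 5.73 and 5.62 against 9.09, 9.04 and 8.89, and 5.56, 5.64, 5.63 and 5.70 against 8.71, 8.92, 9.64 and 9.45. Itga9, an integrin alpha chain, read 5.91, 5.81 and 5.48 against 8.74, 9.07 and 8.41, and 5.08, 5.05, 5.39 and 5.61 against 8.87, 9.12, 9.38 and 9.46. In these genes the spread inside any group was small beside the step between genotypes, which was 3.70 (standard error 0.18) for Gdpd3, 3.42 (standard error 0.15) for Cap1 and 3.53 (standard error 0.20) for Itga9. Scoc, BC018473 and Thg1l differed by 5.29, 4.82 and 4.42, and their wild-type signals were at the authors' floor on 6 of 7 arrays each, where the authors' values gave 2.89, 3.42 and 1.25. Scoc, BC018473 and Thg1l lost their calls when no floor was set, as did Usp21 (3.88, standard error 0.60), a further one of the largest gains. Parp14, an ADP-ribosyltransferase, differed by 3.15 (standard error 0.34) on 1 of 3 probes, while the others gave 0.26 and -0.97 and were not called, and Sh3bp4 differed by 3.50 (standard error 0.31) on 1 probe and by 0.32 (standard error 0.15) on the other.

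**Figure D2:**
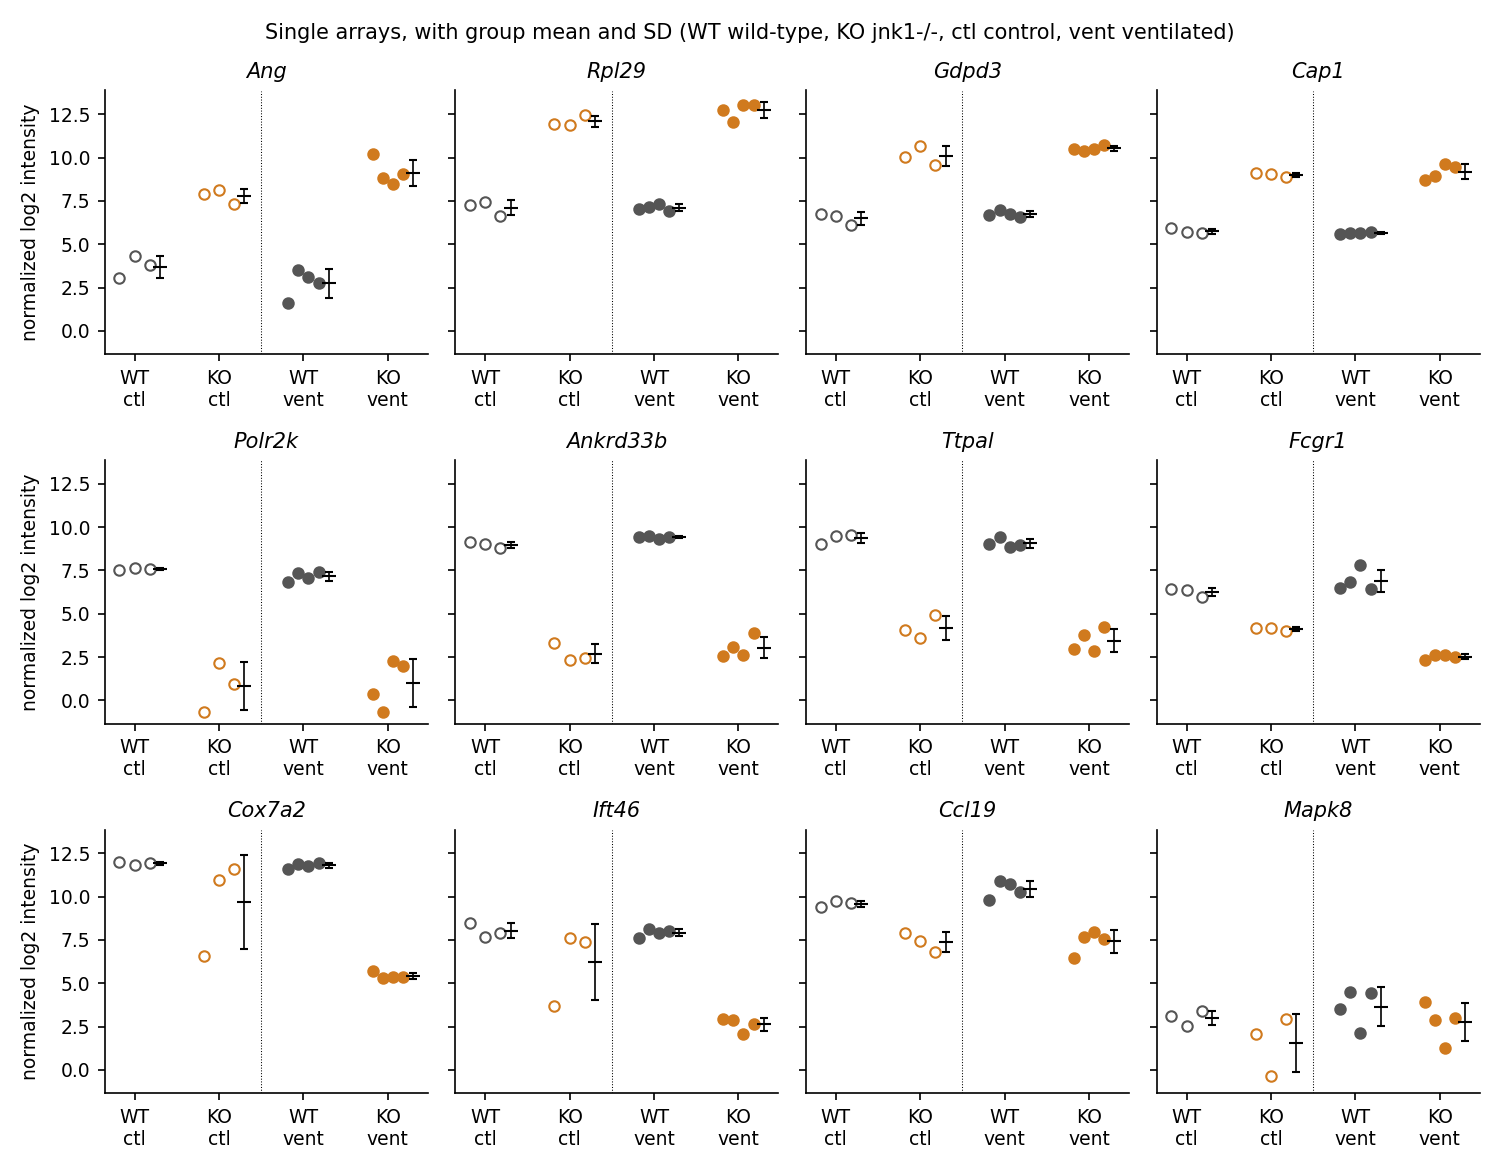
Every array is shown for 12 genes as normalized log2 intensity, with wild-type arrays in gray, jnk1-/- arrays in orange, controls open and ventilated lungs filled, and the bar beside each group gives its mean and SD. The step between genotypes repeats in both conditions for Ang through Ttpal, jnk1-/- control 1 stands apart in Cox7a2 and Ift46, and the Mapk8 groups overlap.

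Fcgr1, the high-affinity receptor for immunoglobulin G, was lower in both conditions and lower still after ventilation. It read 6.42, 6.35 and 5.97 in wild-type and 4.16, 4.19 and 3.98 in jnk1-/- controls, and 6.49, 6.84, 7.82 and 6.40 against 2.34, 2.64, 2.65 and 2.48 after ventilation. The difference was -2.14 in controls and -4.36 in ventilated lungs, and the 2 differed by -2.23 (adjusted p = 0.048 for that test in limma). All 4 ventilated jnk1-/- values stood at the authors' floor.

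Platelet genes were lower in jnk1-/- lungs. Of 8 platelet markers measured, 4 were called lower and none higher, and the same 4 differed the same way in both conditions, against 0.943% of all probes called lower. The median of the list was -1.45, and -0.91 in controls and -1.52 after ventilation, against 0.06, 0.12 and 0.01 over all probes. Ppbp, the platelet basic protein from which chemokines are cut, read 10.29, 11.07 and 10.68 against 8.84, 9.62 and 9.12 in controls, and 10.67, 10.13, 10.34 and 10.35 against 8.99, 8.67, 8.55 and 9.24 after ventilation. Treml1, a receptor of platelet granules, read 7.04, 8.04 and 7.41 against 5.71, 5.87 and 5.48, and 7.87, 6.79, 7.11 and 7.55 against 5.01, 4.95, 5.88 and 6.21. Gp9, part of the receptor for von Willebrand factor, read 7.02, 7.20 and 6.63 against 5.87, 6.15 and 6.17, and 7.43, 7.07, 6.52 and 7.58 against 5.16, 4.70, 5.58 and 5.77. No group overlapped in any of these, and the main effects were -1.50 (standard error 0.17, adjusted p = 0.00073) for Ppbp, -1.82 (standard error 0.25, adjusted p = 0.0027) for Treml1 and -1.44 (standard error 0.24, adjusted p = 0.011) for Gp9. The fourth, Gp1bb of the same receptor, was named after its values were seen and differed by -1.47 (standard error 0.29, adjusted p = 0.027). Pf4 (-0.47, adjusted p = 0.053), Clec1b (-0.90, adjusted p = 0.075), Itga2b (-1.65, adjusted p = 0.37) and Gp5 (-0.10) did not pass. In whole lung, fewer cells of a type and less RNA per cell cannot be told apart.

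Genes of major histocompatibility complex class II, which presents antigen to CD4 T cells, were higher. Of 20 genes in the list, which also holds dendritic cell markers, 4 were called higher and none lower, against 0.714% of all probes called higher, and 2 of the 4 differed the same way. Taken alone, 5 of the list passed in controls (4.02% of all probes did) and none after ventilation (0.612%). After ventilation 5 had an unadjusted p under 0.05, as had 2097 of all 19621 probes. The list's median was 0.36, with 0.55 in controls and 0.23 after ventilation. Cd74, the invariant chain, read 12.27, 11.94 and 12.09 against 13.71, 13.42 and 13.75 in controls, and 11.87, 12.26, 12.30 and 12.51 against 13.26, 13.20, 12.87 and 12.57 after ventilation. H2-Eb1, a class II beta chain, read 11.23, 10.74 and 10.82 against 12.59, 12.14 and 12.13, and 10.35, 10.53, 10.52 and 10.73 against 11.38, 11.75, 11.07 and 10.82. After ventilation the gap between the nearest arrays was small in both. The main effects were 1.08 (standard error 0.18, adjusted p = 0.011) for Cd74, 0.99 (standard error 0.18, adjusted p = 0.017) for H2-Eb1 and 1.25 (standard error 0.21, adjusted p = 0.0097) for H2-Ab1, whose ventilated groups overlapped by 1 array, at 9.69 beside 9.72. H2-Aa, named after its values were seen, differed by 0.89 (standard error 0.16, adjusted p = 0.018). The dendritic cell markers Itgax, Flt3, Clec9a and Xcr1 gave -0.25, -0.36, -0.64 and 0.38 and did not pass. The calls of H2-Ab1, Cd74 and H2-Eb1 were lost under 4, 4 and 7 of 30 alternatives, each with both wild-type controls 2 and 3 left out. Cd74 and H2-Eb1 also lost theirs with the close pairs averaged, and H2-Eb1 after median centring. For H2-Eb1 the alternatives include a demand for over 2-fold, where any difference under 1 is lost by definition.

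The pathway of the deleted kinase held 1 called member, where 1.66% of all probes were called. Of 27 genes of the JNK cascade and AP-1, Fosl1, which encodes the AP-1 subunit FRA-1, was the only one past the threshold, with a list median of 0.20. Fosl1 read 2.13, 1.90 and 2.75 against 4.51, 4.20 and 4.01 in controls and 5.00, 5.77, 5.88 and 5.32 against 6.09, 6.76, 6.38 and 6.47 after ventilation. Both conditions showed higher jnk1-/- arrays, although the wild-type controls were at the authors' floor, and the main effect was 1.38 (standard error 0.24, adjusted p = 0.012). The other AP-1 genes did not pass, with 0.33 (standard error 0.27) for Jun, 1.36 (adjusted p = 0.063) for Junb, 1.39 (adjusted p = 0.077) for Fos and 2.04 (adjusted p = 0.081) for Atf3. The upstream kinase gene Map2k4 gave 0.04 (standard error 0.17). Of 18 genes of the ERK and p38 cascades, 1 was called, Dusp7, a phosphatase that acts on ERK, at 0.63 (standard error 0.13). Its call was lost under 16 of 30 alternative settings, among them a demand for over 2-fold, where any difference under 1 is lost by definition. The Fosl1 call was lost under 4 of 30 alternatives. They were both wild-type controls 2 and 3 left out, no ventilation covariate, the replicate number as a block, and the t-test that the methods name.

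Promoters of the genes that differed the same way were read for the AP-1 motif because JNK acts on AP-1. The windows run from 250 bases before to 50 after the start of each gene in RefSeq (GRCm38.p6), and the motif was TGANTCA, which reads the same on both strands. It stood in 8 of 75 promoters (10.7%) of genes higher in jnk1-/- lungs and in 8 of 81 (9.88%) of lower ones, against 8.21% of the 11012 promoters of all measured genes. These shares lie near that of all genes, and nothing was read from them. The motif is shown in capitals for 3 named genes that hold it, chosen because their free middle bases differ, at chr2:155751033-155751099 (Procr, plus strand, 154 bases before the start), chr5:90768284-90768350 (Ppbp, plus strand, 204 bases before it) and chr8:83458424-83458490 (Scoc, minus strand, 64 bases before it).
Procr: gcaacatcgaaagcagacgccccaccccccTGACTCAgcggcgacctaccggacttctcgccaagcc
Ppbp: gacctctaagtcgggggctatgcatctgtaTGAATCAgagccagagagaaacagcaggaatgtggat
Scoc: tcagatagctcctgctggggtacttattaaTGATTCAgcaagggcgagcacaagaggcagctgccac
Procr, the endothelial receptor of protein C, read 4.72, 5.14 and 5.41 against 6.04, 6.01 and 6.33 in controls and 5.06, 5.29, 5.52 and 4.61 against 5.97, 6.61, 6.36 and 6.17 after ventilation, with a main effect of 1.10 (standard error 0.17, adjusted p = 0.0066). It was the only one called of 21 endothelial markers, whose median was 0.30.

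Besides Ppbp, the chemokine genes Ccl19 and Ccl27a differed the same way, and they lie near each other on chromosome 4. Ccl19, which guides dendritic cells and T cells to lymphoid tissue, read 9.38, 9.72 and 9.62 against 7.93, 7.42 and 6.78 in controls, and 9.83, 10.91, 10.72 and 10.28 against 6.47, 7.66, 7.95 and 7.57 after ventilation. No group overlapped, and the main effect was -2.67 (standard error 0.28, adjusted p = 0.00035). Ccl27a, a skin and mucosal chemokine named after its values were seen, differed by -1.53 (standard error 0.11, adjusted p = 1.2e-05). Both genes belong to clusters of near-identical copies in the mouse genome, and which copy the probes read is not known here. Of 33 inflammatory cytokines and chemokines in the list, 1 was called lower, Ccl19, and 1 higher, Il18, at 0.76 (standard error 0.15, adjusted p = 0.023). Over all probes 0.943% were called lower and 0.714% higher. The Il18 call was lost under 7 of 30 alternatives. Among them were leaving out wild-type control 2 or wild-type control 3, averaging the close pairs, median centring and, by definition, a demand for over 2-fold.

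Among 26 acute phase genes, Cebpb and Cebpd, transcription factors that drive the acute phase response, were called higher and differed the same way, and Fga, a fibrinogen chain, was called lower. Over all probes 0.714% were called higher and 0.943% lower. Cebpb read 7.74, 7.77 and 8.10 against 8.19, 8.47 and 8.98 in controls, and 8.28, 9.10, 8.46 and 8.48 against 10.02, 9.87, 9.24 and 9.94 after ventilation. The main effects were 0.97 (standard error 0.19) for Cebpb and 0.85 (standard error 0.18) for Cebpd, and the calls were lost under 16 and 21 of 30 alternatives. Fga stood at the authors' floor on 12 of 14 arrays. Btg2, an antiproliferative gene induced by p53, was called higher at 1.06 (standard error 0.18), and Zmat3 of the same list lower at -0.60 (standard error 0.13), 2 of 16 p53 and Gadd45 targets. The Zmat3 call was lost under 18 of 30 alternatives, and the Btg2 call with both wild-type controls 2 and 3 left out. Myc, Klf4 and Ier2, growth-response genes named after their values were seen, differed by 0.95, 0.89 and 0.95.

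Of 22 genes of peroxisomal fatty acid oxidation, 3 were called lower and none higher, and all 3 differed the same way. Over all probes 0.943% were called lower and 0.668% were lower the same way. The 3 were Amacr and the transporters of fatty acids in the peroxisomal membrane Abcd2 and Abcd3. Abcd2 and Abcd3 lost their calls with both wild-type controls 2 and 3 left out, Abcd3 also with the close pairs averaged, and Amacr when no floor was set. All 3 also lost their calls in the t-test that the methods name. Abcd3 read 5.01, 6.10 and 5.42 against 3.98, 3.89 and 3.95 in controls, and 5.62, 5.63, 5.56 and 5.91 against 3.93, 4.92, 5.25 and 4.59 after ventilation. The main effects were -3.07 (standard error 0.49) for Abcd2 and -1.24 (standard error 0.22) for Abcd3, and the list's median was 0.05. A second, dimmer Abcd2 probe gave 0.77 (standard error 0.91).

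Markers of muscle and of squamous epithelium were called between genotypes mostly in controls, and whether the lists' differences changed with ventilation was not tested. Of 28 skeletal muscle genes, limma called 13 higher in controls (4.02% of all probes were called) and none after ventilation, where 3 had an unadjusted p under 0.05, and the median level of the list was 7.46 to 8.00 on jnk1-/- control arrays, 3.98 to 4.39 on wild-type controls, 3.54 to 4.25 on ventilated wild-type and 3.73 to 4.14 on ventilated jnk1-/- arrays. Of 38 squamous epithelium genes, 16 were called higher in controls and none after ventilation, where 6 had an unadjusted p under 0.05, with median levels of 7.52 to 8.19 on jnk1-/- controls and 3.55 to 4.28 on all other arrays. Over all 19621 probes, 2097 had an unadjusted p under 0.05 after ventilation. The main effect called 1 skeletal muscle and 3 squamous genes, all higher (0.714% of all probes were), and 0 and 2 of them differed the same way. Casq1, the calcium store protein of muscle, gave 3.18 (standard error 0.68) and Sprr2a1 gave 4.15 (standard error 0.91), but their genotypes were not apart in both conditions. The 2 that were are Sprr1a and Sprr1b, precursors of the cornified envelope. Sprr1a read 1.09, -0.65 and 2.78 against 8.92, 6.83 and 7.39 in controls, but 5.14, 6.09, 6.28 and 5.22 against 6.82, 8.27, 7.89 and 7.82 after ventilation. Its main effect of 4.00 (standard error 0.80) and that of Sprr1b, 1.34 (standard error 0.29), were lost under 13 and 22 of 30 alternatives, and how far the related probes read each other's RNA is not known here. Sprr1a lost its call without wild-type control 1, wild-type control 3, wild-type ventilated 4, jnk1-/- control 2 or jnk1-/- control 3.

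Myl3, a myosin light chain of heart and slow muscle, differed the same way in both conditions, at 6.16 to 6.22 against 9.10, 8.41 and 9.66 in controls and 5.07, 5.07, 4.92 and 6.40 against 7.10, 7.60, 6.89 and 6.82 after ventilation. It was the only one called of 18 cardiac muscle genes. Of immunoglobulin genes, Igh, the heavy chain, was higher by 3.12 (standard error 0.41, adjusted p = 0.002) and Jchain, the chain that joins immunoglobulin units, by 2.49 (standard error 0.57, adjusted p = 0.047). Igh read 8.11, 6.27 and 7.18 against 11.23, 11.07 and 11.95 in controls and 5.68 to 7.09 against 9.14, 8.85, 8.94 and 8.01 after ventilation. Igh belongs to a multigene locus, and Jchain lost its call under 21 of 30 alternatives, among them leaving out any 1 array other than wild-type control 2 or jnk1-/- ventilated 4. The B and plasma cell list had 1 gene called higher and 1 lower (0.714% and 0.943% of all probes were), and its median over 17 genes was -0.05.

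**Figure D3:**
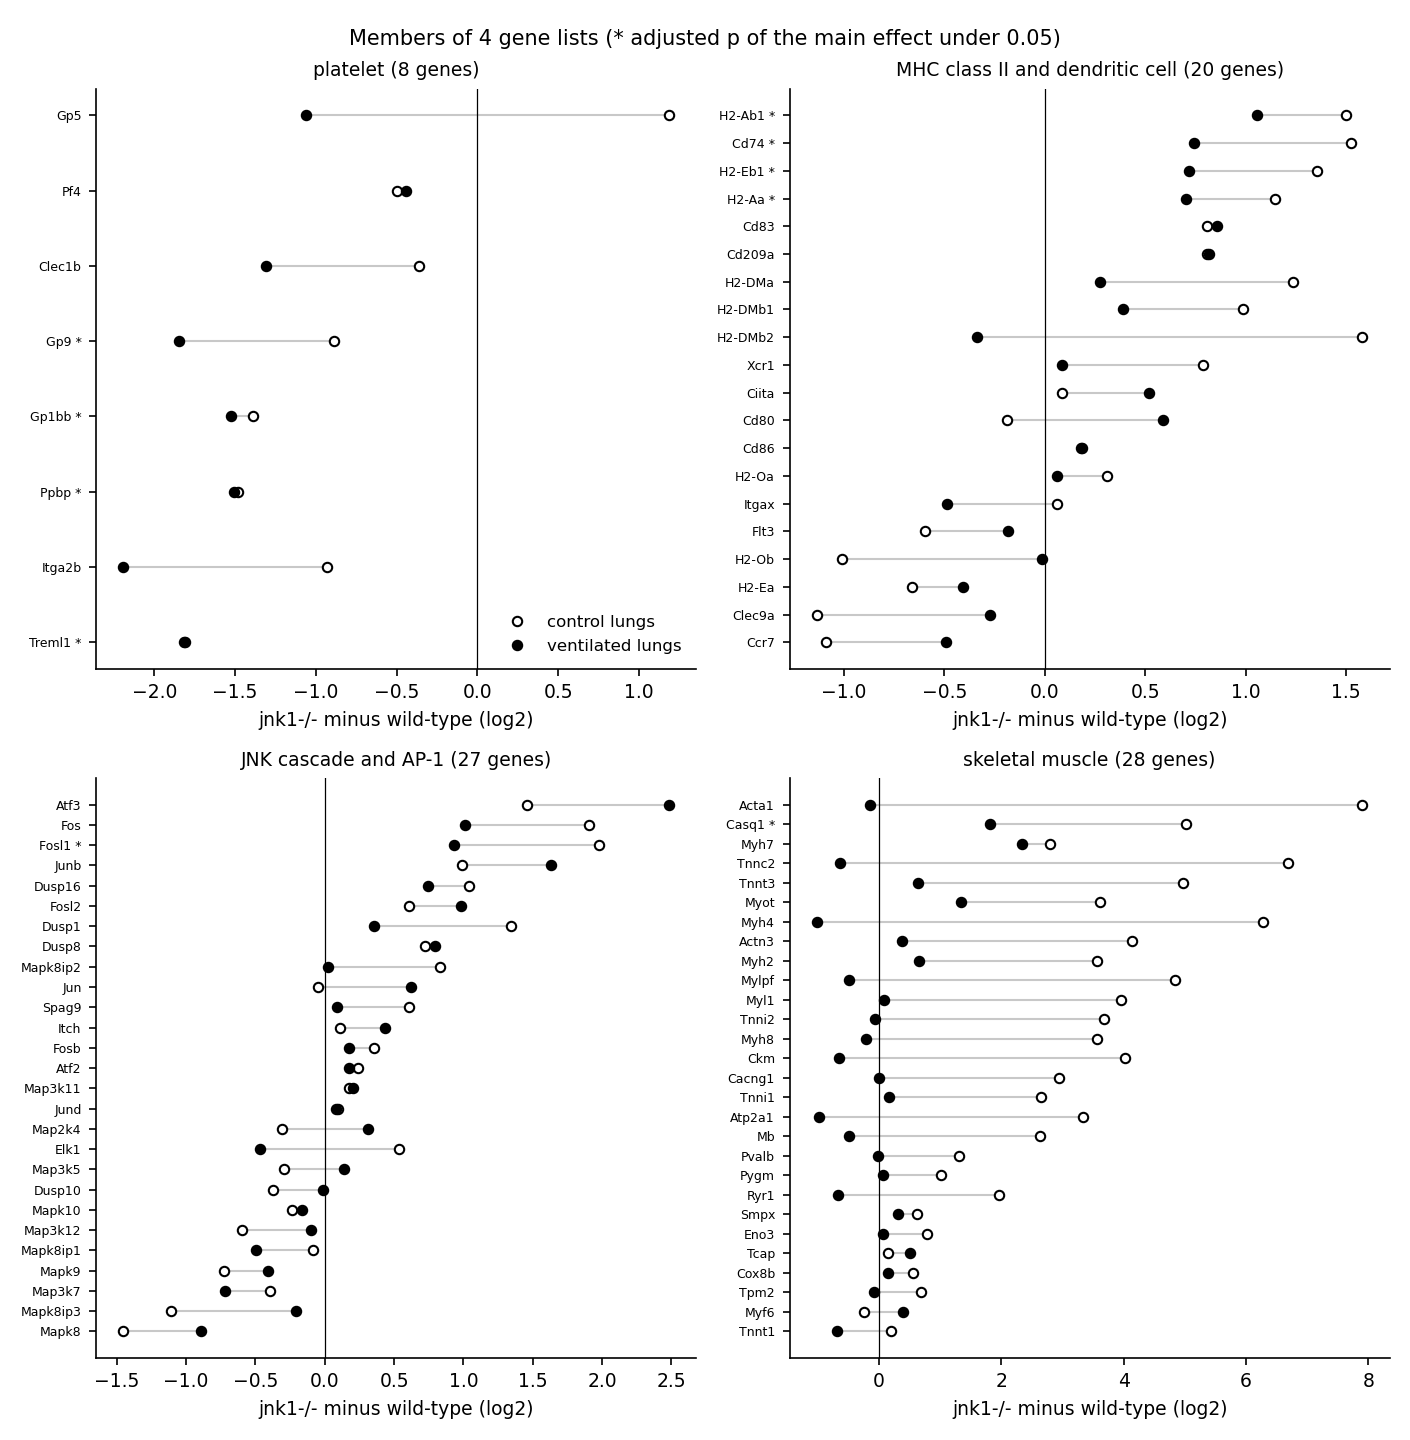
Each row is 1 gene of a list, with its jnk1-/- minus wild-type difference (log2) in controls as an open circle and in ventilated lungs as a filled circle, and a star marks an adjusted p under 0.05 for the main effect. Platelet genes lie to the left in both conditions except Gp5, the starred class II genes lie to the right, and many skeletal muscle genes lie far to the right in controls, with a list median of 3.14, and near 0 after ventilation, with 0.03.

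Several lists of lung cells and stress pathways held a single member that differed the same way, all with an adjusted p between 0.035 and 0.0499 that was lost under many alternatives. Ager, the receptor that marks type 1 alveolar cells, was higher by 0.88 (standard error 0.19), 1 of 8 type 1 markers, and Igfbp4, an insulin-like growth factor binding protein, by 0.61 (standard error 0.13), 1 of 26 insulin and lipogenesis genes. Casp12, a caspase of the endoplasmic reticulum, differed by -0.80 (standard error 0.18), 1 of 24 genes of the BCL2 family and caspases. Casp12 read 8.36, 8.49 and 8.48 in wild-type and 7.71, 7.72 and 6.97 in jnk1-/- controls, and 7.31 to 7.63 against 6.22 to 7.17 after ventilation. Neither condition had an overlap between genotypes. Klra4, a receptor of natural killer cells, gave -1.25 (standard error 0.26), 1 of 22 T and NK cell genes, and Gstm6, a glutathione transferase, -1.88 (standard error 0.43), 1 of 38 genes of its list. Chil1 (-1.33) and Sftpd (0.70), of 12 type 2 alveolar markers, Cyp46a1 (-1.11) and Des (0.91) were called but did not differ the same way. The calls were lost under 13 (Klra4), 18 (Casp12), 19 (Ager), 21 (Igfbp4) and 22 (Gstm6) of 30 alternatives. Among the 30 is a demand for over 2-fold, under which Casp12, Ager and Igfbp4 are lost by definition. Over all probes 1.23% differed the same way.

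The coat colour and sex-linked lists had no call in the main effect. Lists of this size can have none at the share of all probes called, so nothing was read from this about a match of the animals. None of 28 coat colour genes and none of 10 sex-linked genes was called in the main effect, against 1.66% of all probes. They had 6 and 1 at an unadjusted p under 0.05, as had 3414 of all 19621 probes. In controls 2 coat colour genes, Atp7a (-4.48) and Kitl (-1.01), named after their values were seen, were called lower, where 4.02% of all probes were called. There 11 of the 28 had an unadjusted p under 0.05, against 1 after ventilation. Over all probes 4199 had such a p in controls and 2097 after ventilation. Slc45a2, a melanosome transporter, gave 0.32 (standard error 0.31), and Nnt, a mitochondrial enzyme known to vary among C57/BL6 stocks, gave 0.36 (standard error 0.25). The Y-linked genes Eif2s3y and Kdm5d read 7.18 to 8.86 and 6.52 to 7.59 over the 14 arrays. Of the 45 lists, heat shock, interferon-induced, complement, circadian clock, cell cycle, neutrophil, ciliated cell and cartilage genes were among those with no call in the main effect. In that order 6 of 18, 5 of 31, 0 of 21, 5 of 13, 7 of 28, 2 of 19, 2 of 14 and 1 of 14 genes had an unadjusted p under 0.05. Of the 18 heat shock genes, 1 had such a p in controls and 9 after ventilation.

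Positions were taken from RefSeq (GRCm38.p6) for 13721 measured genes, of which 196 (1.43%) differed the same way. Here and around Mapk8 a gene was counted if any of its probes differed the same way, which favours genes with several probes. On the brightest probe of each gene alone, 185 genes (1.35%) did. The share was 2.59% on chromosome 9, 2.57% on chromosome 15, 2.36% on chromosome 3, 2.31% on chromosome 14, which carries Mapk8, and 2.06% on chromosome 4. It was 0.619% on chromosome 19 and 0.438% on the X chromosome. On the brightest probes alone, chromosomes 9, 15, 3, 14 and 4 gave 2.46%, 2.39%, 2.36%, 1.89% and 1.80%. Within 5 measured genes on either side of such a gene, 3.27% of the neighbours also differed the same way, against 1.43% of all genes. At least 1 such neighbour was found for 56 of the 196 genes (28.6%), and the same share for all genes was not counted. Some neighbours are related genes, such as Sprr1a and Sprr1b, and how far their probes read each other's RNA is not known here. Examples on chromosome 15 are Trio, Dap and Ankrd33b within 5 measured genes, where Ankrd33b was lower and Trio (2.32, standard error 0.34) and Dap (0.95, standard error 0.12) were higher on 1 of 2 probes each, and Nipal2, Polr2k and Ywhaz within 9. On chromosome 2, Procr, Eif6 and Ergic3 were all higher, and Eif6, a ribosome assembly factor, differed by 1.73 (standard error 0.13). Such genes were found on every autosome, and these positions are a description without a test.

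**Figure D4:**
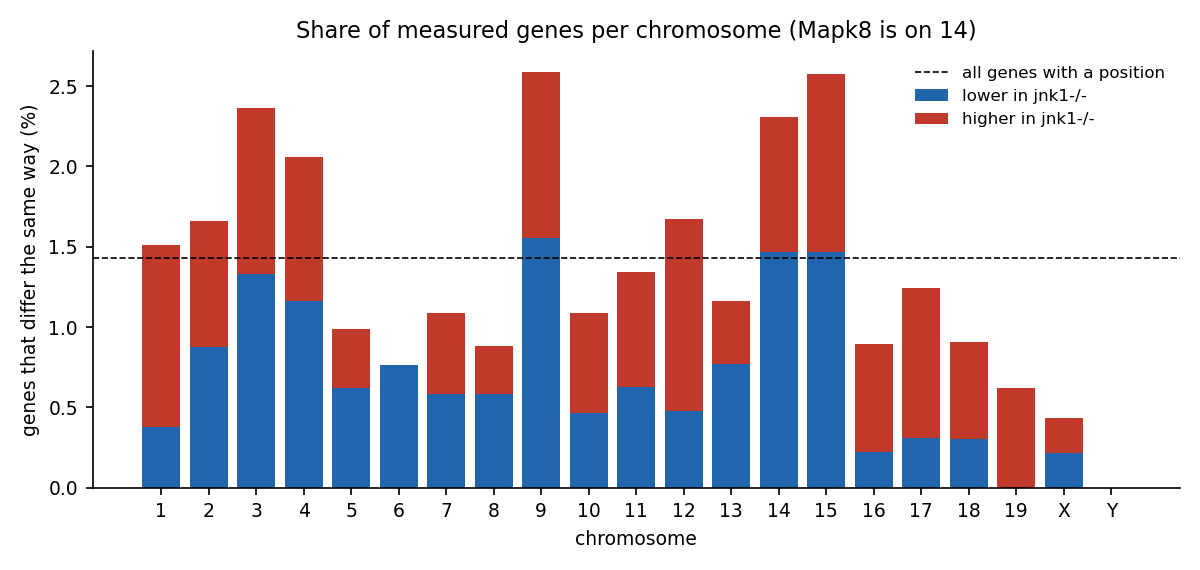
Bars give the share (%) of measured genes on each chromosome that differed the same way, split into lower (blue) and higher (red) in jnk1-/- lungs, and the dashed line marks 1.43% for all genes with a position. Chromosomes 9, 15, 3, 14 and 4 stand above 2%, counting a gene if any of its probes differed the same way. On the brightest probes alone chromosomes 14 and 4 were at 1.89% and 1.80%.

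Around Mapk8, 8 of 210 measured genes within 20 Mb (3.81%) differed the same way on any of their probes, 4 higher and 4 lower. The nearest was Anxa8, a calcium- and phospholipid-binding annexin 0.7 Mb away, which read 7.83, 7.30 and 8.02 against 6.61, 6.63 and 6.17 in controls and 7.63, 7.64, 8.03 and 8.16 against 5.76, 6.92, 7.03 and 7.02 after ventilation. Its main effect was -1.21 (standard error 0.22, adjusted p = 0.015). On the one side, at 6.5, 7.5 and 12.4 Mb, lay Asb14 (-1.26, standard error 0.26), Tmem254a (-1.41, standard error 0.16) and Vcl, the focal adhesion protein vinculin (0.997, standard error 0.17). On the other side, at 13.4 Mb, lay Gmfb (0.94, standard error 0.16), followed by Ang at 17.7, Rpgrip1 at 18.7 (-1.05, standard error 0.22) and Supt16, a subunit of the histone chaperone FACT, at 18.8 (3.19, standard error 0.40). From 20 to 40 Mb away, 2 of 181 genes (1.10%) on the distal side and none of 14 on the proximal side differed the same way. Ang and Supt16 were also among the 15 largest gains, and Supt16 was at the authors' floor on 4 of 7 wild-type arrays. The calls of Asb14 and Rpgrip1 were lost under 13 and 12 of 30 alternatives, both among others without wild-type control 3, wild-type ventilated 1, jnk1-/- control 1, jnk1-/- control 2 or jnk1-/- ventilated 1. Those of Anxa8 and Gmfb were lost under 2 and 5, each with both wild-type controls 2 and 3 left out. Gmfb also lost its call with the close pairs averaged, after median centring and, by definition, under a demand for over 2-fold.

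**Figure D5:**
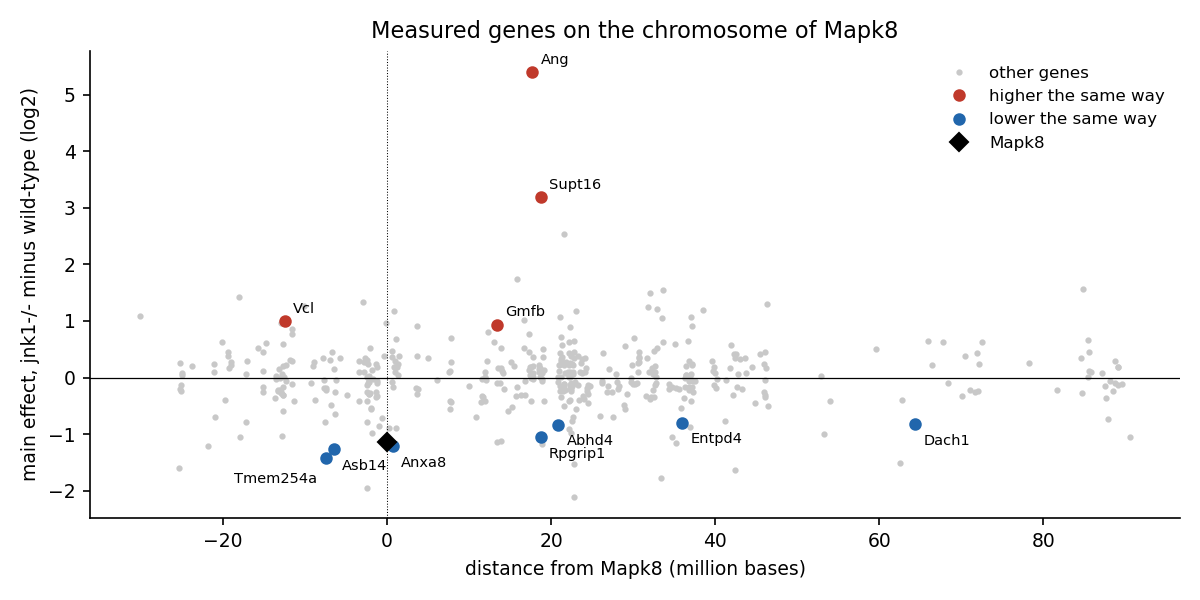
Each point is 1 measured gene on the chromosome of Mapk8, with its distance from Mapk8 in Mb on the horizontal axis and its main effect (log2) on the vertical axis. Red and blue points differed the same way on at least 1 probe. Ang and Supt16 stand out at 17.7 and 18.8 Mb, and the 8 coloured points within 20 Mb lie on both sides of Mapk8.

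At the threshold of the main effect, the last probes inside with the genotypes apart in both conditions were those of Ceacam14 and Gstm6, at 0.62 and -1.88 (adjusted p = 0.048 and 0.0499), with a probe that names no gene between them, and the first outside was that of Bpifa1 (adjusted p = 0.0506). Of 69 named genes past the threshold, 18 kept their call under every alternative tried. They are Ang, Rpl29, Gdpd3, Itga9, Cap1, Supt16 and Procr among the higher and Polr2k, Ankrd33b, Ttpal, Norad, Ttl, Fcgr1, Tmem254a, Ccl19, Ppbp, Treml1 and Gp9 among the lower. The exact permutation test of genotype within conditions, over 1400 arrangements, gave its smallest two-sided p of 0.00143 for 60 of 77 named genes, which for genes that differed the same way follows from how they were chosen.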

How the data were processed

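Per the file headers and the methods, the authors deposited log2 intensities of CodeLink Uniset I 20K single-colour arrays, not scaled between arrays (lowest value -6.86), and their own cyclic loess normalized log2 values, with a floor at 3.12 that holds 24.5% of values. For arrays, their number limits the precision. Here the first table was normalized by pairwise cyclic loess (own code, span 0.7, 3 iterations, lowest values out of the curves), and anything below the 1st percentile (-0.65) was raised to it. Above the authors' floor the result correlated with their table by 0.988 or more on each array. limma 3.58.1 (lmFit, eBayes) in R 4.3.3 fitted genotype with ventilation as a covariate, and the 4 group means for comparisons within conditions, with Benjamini-Hochberg adjustment over 19621 probes. Of these, 15353 named 1 gene, 91 several and 4177 none, from the platform annotation updated through RefSeq. Lists (45, of which 25 are pathways and 20 cell types) used each gene's brightest probe.

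Named genes are the 15 largest differences in each direction among genes that differed the same way, those within 20 Mb of Mapk8, a fixed set (Mapk8, Mapk9, Mapk10, Jun, Nnt, Slc45a2, sex-linked genes), up to 3 called members of each list by adjusted p, and called genes whose difference changed with ventilation. Members, lists and tests were chosen with earlier results of these data known. Steps were tested on simulated data. Python 3.11.15 and matplotlib 3.10.9 drew the figures. Alternatives covered normalization, floor, dim probes, covariate, test, block, array weights, choice of probe, fold and arrays.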

Additional observations from a re-analysis of the deposited data

Results flagged for a closer look

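Fcgr1 stood out because its genotype difference was larger after ventilation, by -2.23 (adjusted p = 0.0482 for the difference between conditions in limma, 7 of 7 jnk1-/- arrays lower).

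In the following genes the gap between 1 of the 4 ventilated arrays of a genotype and the nearest of the other 3 made up most of the range of the group, which chance gives in about 1 of 20 groups, although some of these gaps were small in log2 units. In jnk1-/- lungs the array apart read 2.25 in Lima1 and 3.03 in Norad, where the other arrays were at or near the floor. It read 5.68 in Cox7a2, 5.76 in Anxa8, 9.76 in Jun, 8.13 in Dusp7 and 12.22 in Cebpd, where the nearest other array read 5.37, 6.92, 11.40, 8.29 and 13.14. In wild-type lungs it read 6.54 in Hoatz, 10.69 in Jun, 6.40 in Myl3 and 3.95 in Klra4, where the nearest other array read 7.21, 10.43, 5.07 and 4.68. The low values of Jun and Cebpd, at 9.76 and 12.22, were both of jnk1-/- ventilated 3.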

How the results depend on the processing

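Of the 69 named genes past the threshold, 18 kept the call throughout and 51 lost it at least once. The demand for over 2-fold, under which 14 lost it, removes by definition every gene with a difference under 1. Only Parp14 changed direction, to -0.97 on its brightest probe (adjusted p = 0.081), while the brightest probe of Sh3bp4 gave 0.32 (adjusted p = 0.27). Counts of calls moved by over 1.5 times as follows. Median centring gave 1301 probes in controls and 79 in ventilated lungs. The authors' values gave 207 for the change of the genotype difference with ventilation. With dim probes left out, so that fewer were tested, the main effect called 549, ventilated lungs 217 and the change with ventilation 115. Without the covariate the main effect called 131 and 114 differed the same way, and as the average of both conditions in the 4-group fit it called 774, of which 400 were higher and 374 lower (51.7% higher). Welch's t-test, which the methods name, was run on 7 jnk1-/- against 7 wild-type arrays, with control and ventilated lungs pooled. With Benjamini-Hochberg adjustment, and without the other criteria of the methods, it called 66, of which 61 differed the same way. Averaging the close pairs of arrays gave 123 for the main effect, 120 the same way, 153 in controls, 18 for the change with ventilation and 26 in both conditions at once. Leaving out wild-type controls 2 and 3 together gave 109, 109 the same way, 193 in controls and 19 in both at once. A demand for over 2-fold left 203 and 155. The cause was not tested where fewer probes or arrays do not give it.

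Replicate numbers are not said to pair the arrays, and deviations of same-numbered arrays correlated between -0.052 and 0.091. With the replicate number as a block the main effect called 108, 97 differed the same way, controls gave 426, ventilated lungs 55, the change with ventilation 12 and both conditions at once 31.

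Leaving out 1 array at a time gave 180 to 369 for the main effect, 158 (without wild-type control 3) to 309 the same way, 230 to 1063 in controls, 50 to 257 in ventilated lungs, 20 to 235 for the change with ventilation and 27 to 56 in both conditions at once. In controls the count moved by over 1.5 times without wild-type control 2 or 3 or any jnk1-/- control (230, 313, 354, 382 and 415), and in ventilated lungs without wild-type ventilated 1, 3 or 4 or jnk1-/- ventilated 2, 3 or 4 (50, 69, 66, 76, 257 and 73). In both at once it did so without wild-type control 2 or 3 or wild-type ventilated 1 or 3 (31, 31, 27 and 31), and for the change with ventilation without any array except jnk1-/- ventilated 4.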
